A study of Mus musculus with 57 samples.

Results

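Leukemic spleens of CA10 mice were compared, gene by gene, with spleens of wild-type mice. CA10 mice carry a vav-CALM-AF10 transgene, a fusion of CALM and AF10 driven by the blood-cell promoter of Vav, and their spleens were taken when signs of leukemia showed. The comparison used the 8 of the series' 57 arrays that are titled as CA10 tumor spleens (6 arrays) or as wild-type spleens (2 arrays). CA10 spleens without clinical signs (CA10 healthy, 5 arrays, same transgene) and leukemic spleens of NHD13 mice (vav-NUP98-HOXD13, 6 arrays) were used for further comparisons. Healthy tissue was age-matched, and wild-type tissue came from littermates where that could be done, per the labels' protocols. No mouse was on a treatment. The labels give no ages and no strain for the spleens, and nothing in them ties each array to a mouse of its own, so the p-values cover array-to-array spread, which may be technical.

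Values are log2 signals of Affymetrix probe sets, and a difference of 1 unit is a 2-fold difference in signal. A gene is called when its limma p-value, adjusted over all genes tested with the Benjamini-Hochberg method, is under 0.05. Unless said otherwise, 3 values for CA10 leukemic spleen are the lowest, the median and the highest of its 6 arrays, and the pair for wild-type spleen is both of its arrays.

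The spleen filters blood in its red pulp and houses B and T lymphocytes in its white pulp, whose follicles are laid out by stromal chemokines. In mice it also makes blood cells, and it enlarges when leukemic cells settle there. CALM-AF10 is found in human acute leukemias of myeloid and T-lymphoid type. AF10 binds the histone methyltransferase DOT1L, and leukemias with the fusion are known for high expression of HOXA genes.

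Several arrays stood apart from the others. On CA10 leukemic array 2, the 6 megakaryocyte and platelet markers averaged 5.91, against 9.88 to 11.14 on the other 5 CA10 leukemic arrays and 10.24 and 10.11 on the wild-type arrays. The 7 erythroid markers averaged 6.26 there and the 9 markers of spleen stroma and red pulp 6.37, while the other 5 CA10 leukemic arrays had at least 7.83 and 7.92. The 5 adipocyte markers averaged 8.09 on this array. CA10 leukemic array 3 held RNA of exocrine pancreas markers, with a mean of 10.61 for 7 genes, against 5.69 to 6.15 on the other 5 CA10 leukemic arrays and 5.98 and 5.90 on the wild-type arrays. On CA10 leukemic array 4 the 24 cell division genes averaged 9.07, the lowest of the 6. The wild-type arrays also differed: the 12 heat shock genes averaged 9.47 on the first and 10.73 on the second. Adipocyte markers averaged 5.80 and 7.66 on them, and cell division genes 9.77 and 8.85. Sex was read from the signals of Xist and Eif2s3y, and this reading serves as the sex term below. Wild-type array 1 and CA10 leukemic array 6 read as female, wild-type array 2 and the rest of the CA10 leukemic arrays as male. Differences between the 2 wild-type arrays thus cannot be told apart from sex. RNA quality differed with the groups, the Gapdh 3' minus 5' probe difference being -0.05 to 0.22 on the CA10 leukemic arrays and 0.57 and 0.37 on the wild-type arrays. Its part in the results was not tested beyond a fit that holds it as a covariate. That fit includes CA10 healthy array 1, whose difference of 2.09 was the highest of the spleen arrays.

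**Figure D1:**
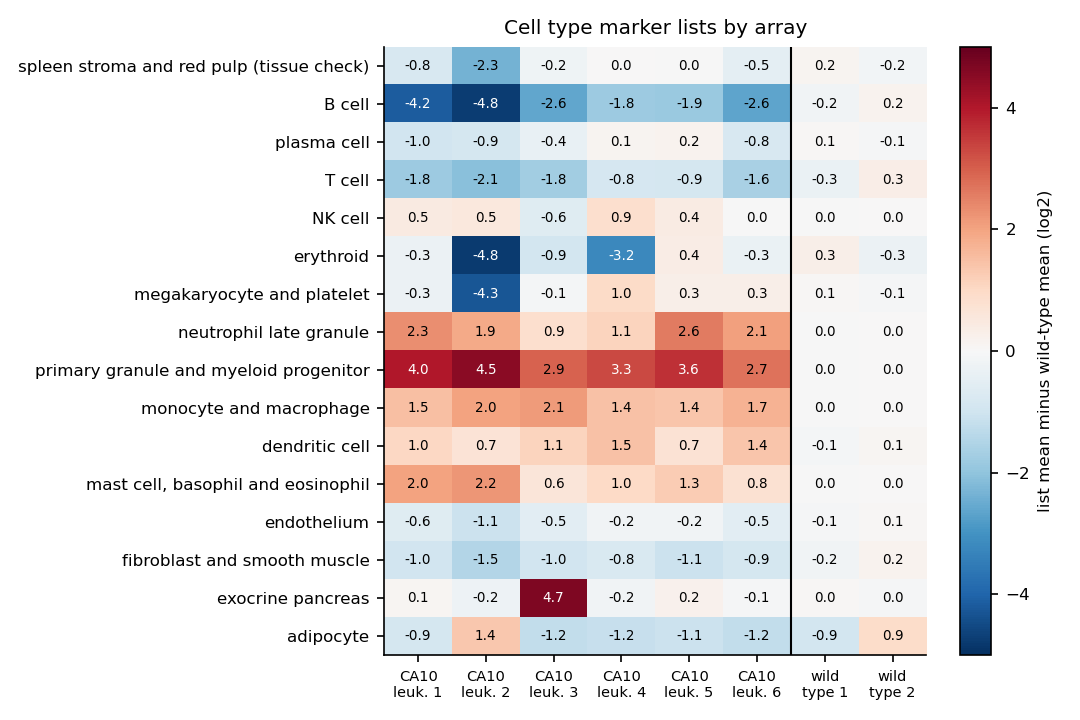
Mean signal of each cell type marker list on each array, as a difference in log2 units from the mean of the 2 wild-type arrays; the 6 CA10 leukemic arrays stand left of the line and the wild-type arrays right of it. CA10 leukemic array 2 is low in erythroid, platelet and spleen markers, and array 3 is high in pancreas markers.

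Of 15310 genes tested, 1232 (8.05%) were called: relative to wild type, 862 (5.63%) rose and 370 (2.42%) fell in the leukemic spleens. The median rise among called genes was 0.98 log2 units and the median fall -1.06, while the median over all genes tested was 0.03. A change beyond 2 units was seen in 111 called genes, 54 of them higher and 57 lower. At an unadjusted p under 0.05 there were 3760 genes. The signals of the groups did not overlap for 4864 of the genes tested (31.8%), called or not. Of the 1232 called genes, 1222 did not overlap, which is 7.98% of all genes tested. Non-overlap is thus usual for a called gene, also where it is mentioned below.

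The calls rest on both wild-type arrays. With wild-type array 1 left out 1 gene was called, and with wild-type array 2 left out 0 were called by limma, with 2517 and 2297 genes at an unadjusted p under 0.05. Of the 1232 calls, 1164 and 1151 kept an unadjusted p under 0.05 in these fits. Without CA10 leukemic array 3, 718 genes were called, and without both arrays 2 and 3, 281 were. Quantile normalization turned the balance of the calls, with 46.4% of 1113 called genes higher, against 70.0% of 1232 on the deposited scale.

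Among the 15 largest rises were Sh2d5, Egln3, Cep55 and Tifab. Sh2d5, an adaptor-like protein, measured 7.84, 8.39 and 8.93 in CA10 leukemic spleen, against 4.41 and 4.57 in wild-type spleen, a rise of 3.91 (SE 1.06, adjusted p = 0.0338). Egln3, a prolyl hydroxylase that marks the hypoxia-inducible factor for degradation, measured 7.42, 8.37 and 9.82 in CA10 leukemic spleen, against 5.17 and 4.84 in wild-type spleen, a rise of 3.40 (SE 0.82, adjusted p = 0.0209). Both had every CA10 leukemic array at least 2 units above both wild-type arrays. Cep55, needed for the final cut between daughter cells, measured 8.80, 9.30 and 9.96 in CA10 leukemic spleen, against 6.49 and 6.10 in wild-type spleen, and rose by 3.02 (SE 0.73, adjusted p = 0.0214). Tifab, a forkhead-associated protein that dampens TRAF6 signalling, measured 7.94, 9.37 and 10.57 in CA10 leukemic spleen, against 6.17 and 6.39 in wild-type spleen, and rose by 3.05 (SE 0.92, adjusted p = 0.0484). Groups that do not overlap were a condition for being among these 15, and the 6 leukemic arrays of Tifab spread over more than 2 units.

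**Figure D2:**
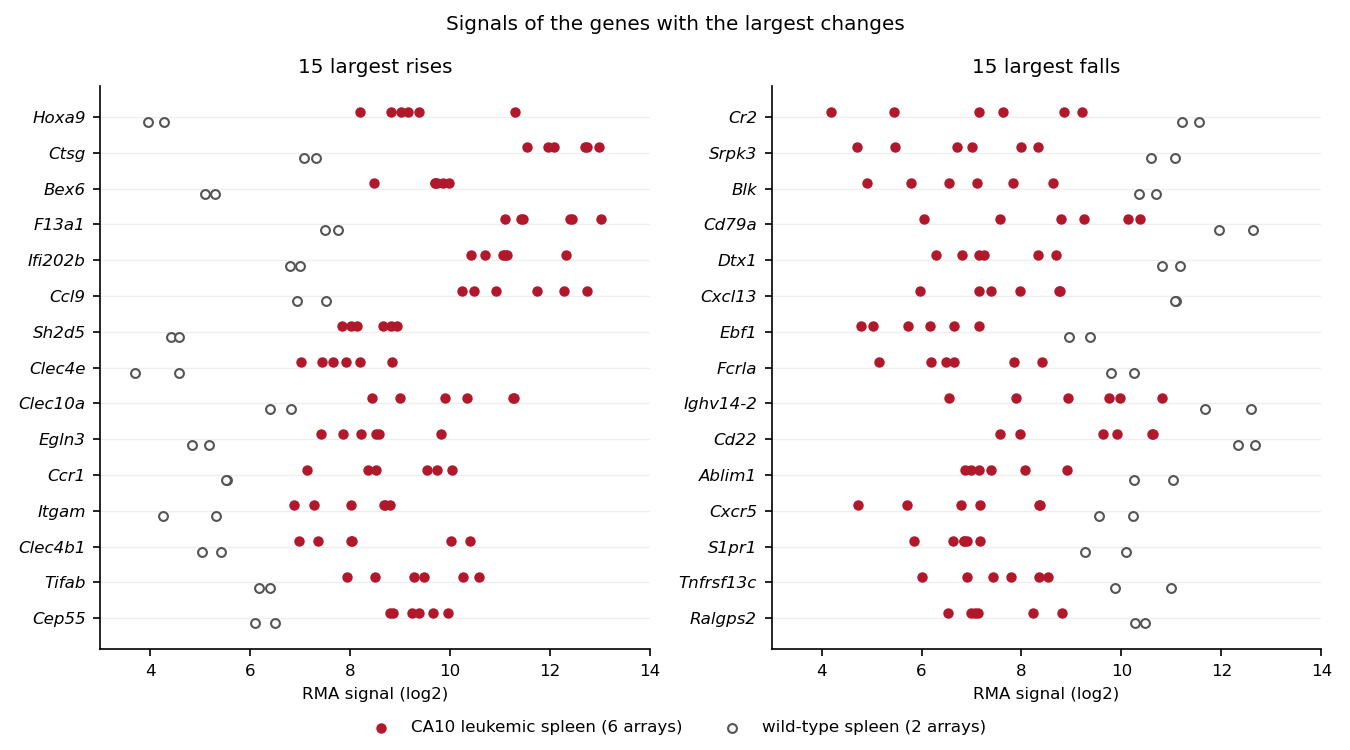
RMA signals (log2) of the 15 genes with the largest rises and the 15 with the largest falls among called genes whose groups do not overlap. Filled points are the 6 CA10 leukemic arrays and open points the 2 wild-type arrays; Hoxa9 rose by 5.19 and Cr2 changed by -4.30.

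The 10 smallest adjusted p-values belonged in part to genes of moderate change and tight spread. Hoxa9 and Ifi202b, with large rises of 5.19 and 4.23, were also among them (adjusted p = 0.00329 for both). Jpt2, a binding protein for the calcium-mobilising messenger NAADP, had the smallest. Its signals were 8.55, 9.06 and 9.20 in CA10 leukemic spleen, against 7.51 and 7.21 in wild-type spleen, a rise of 1.62 (SE 0.19, adjusted p = 0.00188). Ppp2r3c, a regulatory subunit of a protein phosphatase, measured 9.59, 9.76 and 9.91 in CA10 leukemic spleen, against 8.51 and 8.31 in wild-type spleen, and rose by 1.34 (SE 0.17, adjusted p = 0.00329). Cops6, a subunit of the COP9 signalosome, rose by 1.12 (SE 0.17, adjusted p = 0.00434), and Cenpx, a histone-fold protein of kinetochores and the Fanconi pathway, by 1.40 (SE 0.21, adjusted p = 0.00434). Lrrc59, a ribosome-binding protein of the endoplasmic reticulum, rose by 1.35 (SE 0.20, adjusted p = 0.00434). In all of these the 6 CA10 leukemic arrays lay above both wild-type arrays.

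Changes were then read over 47 pathway lists, which hold 812 genes tested. Of these, 70 (8.62%) rose and 27 (3.33%) fell, against 5.63% and 2.42% of all genes tested. Each count of called members below is to be read beside these shares of all genes tested. At least 1 member was called in 35 lists and none in 12. The count of 97 members called was 59 without CA10 leukemic array 3, 22 without arrays 2 and 3, and 0 without either wild-type array. After quantile normalization it was 89.

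**Figure D3:**
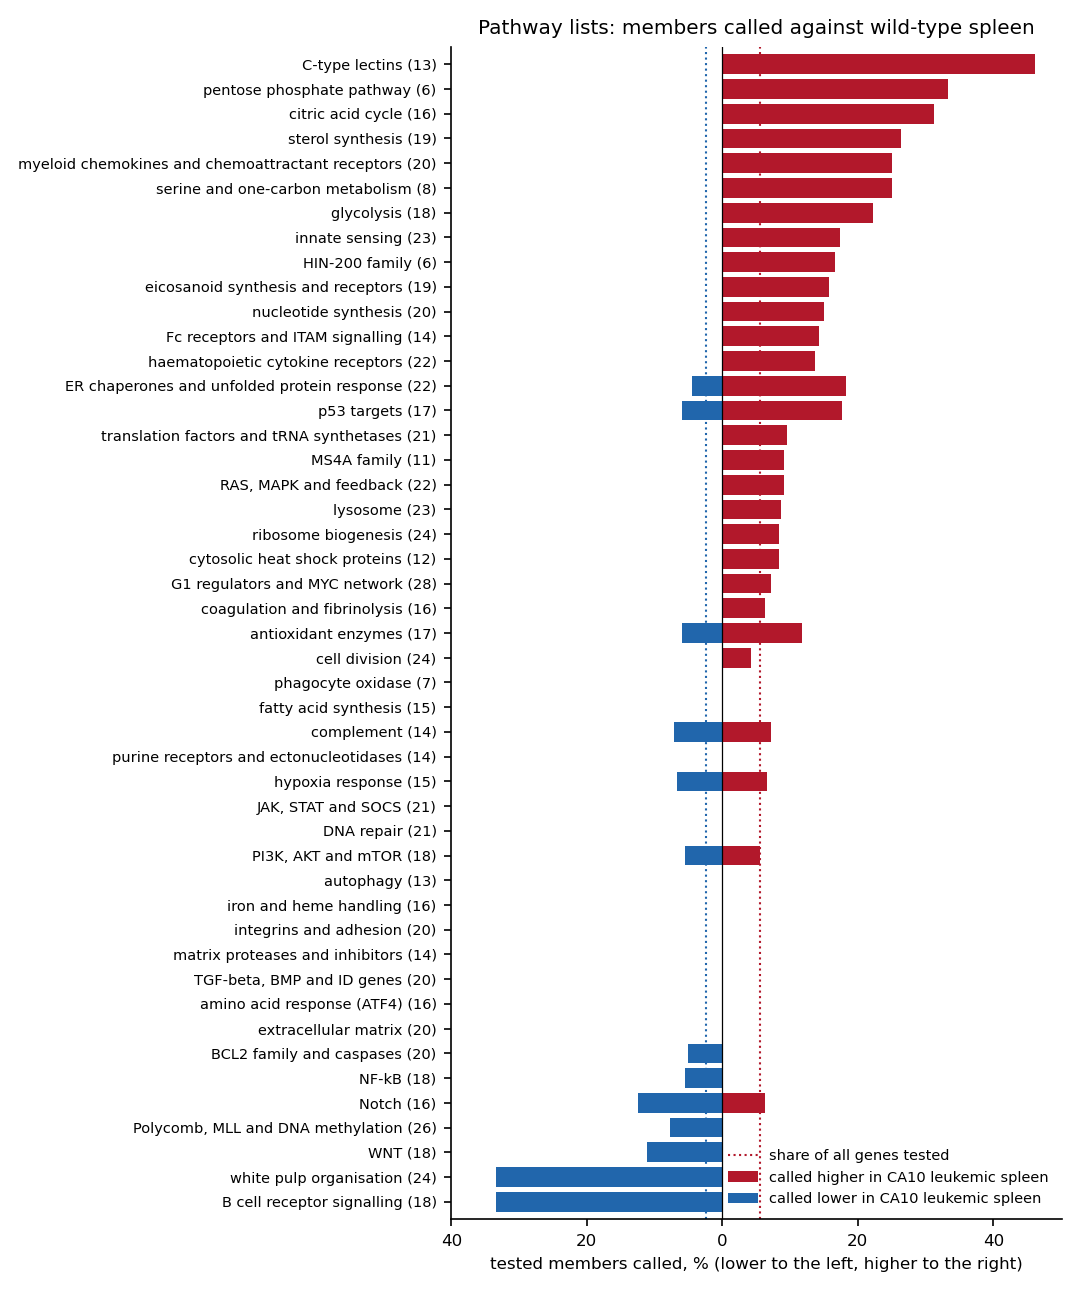
Share of each pathway list's tested members (number in brackets) that were called, in %, lower in CA10 leukemic spleen to the left and higher to the right. Dotted lines mark the shares of all genes tested, 2.42% lower and 5.63% higher; C-type lectins, citric acid cycle and sterol synthesis lie to the right, and white pulp organisation and B cell receptor signalling to the left.

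The myeloid lectin receptors had the highest median of the 47 pathway lists. Of 13 C-type lectins tested, receptors by which macrophages, monocytes and dendritic cells bind sugars and microbes, 6 rose and 0 fell, and the median difference was 2.50 log2 units. Clec4e, or Mincle, a receptor for mycobacterial glycolipid and dead cells, measured 7.01, 7.79 and 8.83 in CA10 leukemic spleen, against 4.58 and 3.69 in wild-type spleen, and rose by 3.70 (SE 0.86, adjusted p = 0.0185). Its partner Clec4d measured 7.00, 8.37 and 8.75 in CA10 leukemic spleen, against 6.06 and 5.94 in wild-type spleen, and rose by 2.21 (SE 0.62, adjusted p = 0.0368). Clec10a, a galactose-type lectin of macrophages and dendritic cells, measured 8.44, 10.12 and 11.28 in CA10 leukemic spleen, against 6.39 and 6.81 in wild-type spleen, and rose by 3.43 (SE 0.99, adjusted p = 0.0427). No CA10 leukemic array reached down to a wild-type array in these genes, but the leukemic arrays differed from one another, with Clec10a highest on arrays 3 and 6. Clec4b1 measured 6.97, 8.03 and 10.40 in CA10 leukemic spleen, against 5.03 and 5.42 in wild-type spleen, a rise of 3.24 (SE 0.79, adjusted p = 0.0214), and was likewise highest on arrays 3 and 6. Clec4a3, of the DCIR family, measured 9.16, 10.06 and 10.64 in CA10 leukemic spleen, against 7.50 and 7.61 in wild-type spleen, and rose by 2.50 (SE 0.58, adjusted p = 0.0185). The beta-glucan receptor Clec7a, or Dectin-1, rose by 2.64 (SE 0.79, adjusted p = 0.048). Cd209a and Clec4a2 measured 7.75, 9.98 and 12.44 in CA10 leukemic spleen, against 7.58 and 7.67 in wild-type spleen, and 8.98, 9.81 and 10.51 in CA10 leukemic spleen, against 7.32 and 7.14 in wild-type spleen, and were not called (adjusted p = 0.0885 and 0.0676). Without CA10 leukemic array 2, 4 members were called, without array 3, 3, with sex as a term, 3, and without both arrays, 1. In a bulk sample more cells of a type and more RNA per cell cannot be told apart. The mean of the 10 monocyte and macrophage markers was also higher, and 4 of 10 were called higher. It was 9.89 to 10.61 on the CA10 leukemic arrays and 8.47 and 8.53 on the wild-type arrays. CA10 leukemic array 2 had the lowest lectin mean of the 6, 8.33, beside a monocyte marker mean of 10.51. The part of the monocyte markers in these rises was not tested.

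Among 20 myeloid chemokines and chemoattractant receptors, 5 rose and 0 fell. Ccl6 and Ccl9 encode CC chemokines of mouse myeloid cells, and Ccr1 a receptor they bind. Ccl6 measured 9.49, 10.38 and 10.80 in CA10 leukemic spleen, against 7.60 and 7.39 in wild-type spleen, a rise of 2.84 (SE 0.56, adjusted p = 0.0103). Ccl9 measured 10.23, 11.32 and 12.74 in CA10 leukemic spleen, against 6.94 and 7.51 in wild-type spleen, and rose by 4.17 (SE 0.99, adjusted p = 0.0197). Ccr1 measured 7.14, 9.03 and 10.04 in CA10 leukemic spleen, against 5.54 and 5.51 in wild-type spleen, and rose by 3.36 (SE 0.93, adjusted p = 0.0362). The ligands and the receptor were thus higher on all 6 CA10 leukemic arrays, Ccr1 least so on array 4. Ccr2, by which monocytes leave the marrow, measured 8.53, 9.85 and 10.51 in CA10 leukemic spleen, against 7.14 and 7.26 in wild-type spleen, and rose by 2.48 (SE 0.71, adjusted p = 0.0413). Ltb4r1, the receptor for the neutrophil attractant leukotriene B4, measured 7.88, 8.07 and 8.74 in CA10 leukemic spleen, against 5.69 and 5.65 in wild-type spleen, and rose by 2.49 (SE 0.66, adjusted p = 0.0295). The formyl peptide receptor Fpr2 and the fractalkine receptor Cx3cr1 measured 8.68, 10.62 and 11.72 in CA10 leukemic spleen, against 8.37 and 7.69 in wild-type spleen, and 7.18, 8.21 and 8.81 in CA10 leukemic spleen, against 6.40 and 6.64 in wild-type spleen, and were not called (adjusted p = 0.186 and 0.0852). The mean of the 7 primary granule and progenitor markers was also higher. It was 10.24 to 12.05 on the CA10 leukemic arrays and 7.53 and 7.54 on the wild-type arrays. Among the leukemic arrays it was lowest on array 6, where the mean of the chemokine list was highest, at 8.40. The 10 late neutrophil granule markers stood at 9.95 to 11.68, against 9.08 and 9.11. The part of these markers, and of the monocyte markers above, was not tested here or for the leukotriene genes below. Without CA10 leukemic array 3, 2 members were called, with sex as a term 3, and without arrays 2 and 3, 1.

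Part of the synthesis of this leukotriene also rose. Of 19 genes of eicosanoid synthesis and response, 3 rose and 0 fell, namely Alox5ap, Lta4h and the receptor Ltb4r1 described above. The lipoxygenase gene Alox5 was not among the genes called. Alox5ap, which hands arachidonic acid to the lipoxygenase of this pathway, measured 11.65, 12.23 and 12.44 in CA10 leukemic spleen, against 9.62 and 9.82 in wild-type spleen, and rose by 2.43 (SE 0.50, adjusted p = 0.0115). Lta4h, whose product is leukotriene B4 itself, measured 10.22, 10.67 and 10.98 in CA10 leukemic spleen, against 8.72 and 9.05 in wild-type spleen, and rose by 1.76 (SE 0.45, adjusted p = 0.0248). Neither gene's groups overlapped. The cysteinyl leukotriene receptor Cysltr1 measured 5.33, 6.07 and 8.15 in CA10 leukemic spleen, against 4.25 and 4.48 in wild-type spleen, with CA10 leukemic arrays 3 and 6 standing highest, and was not called (adjusted p = 0.0586).

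Sensors of microbes and antibody, and receptors of cytokines, rose in part. Of 23 innate sensing genes 4 rose and 0 fell, namely Tlr13, Tlr8, Pycard and Tirap. Tlr13, a mouse sensor of bacterial ribosomal RNA, measured 9.16, 9.47 and 9.76 in CA10 leukemic spleen, against 7.53 and 7.27 in wild-type spleen, and rose by 2.05 (SE 0.50, adjusted p = 0.0224). Pycard, the adaptor protein of inflammasomes, measured 10.97, 11.28 and 11.92 in CA10 leukemic spleen, against 9.68 and 10.20 in wild-type spleen, and rose by 1.48 (SE 0.38, adjusted p = 0.0268). Tirap, which links Toll-like receptors to MyD88, rose by 1.44 (SE 0.38, adjusted p = 0.0283), and Tlr8 by 0.90 (SE 0.26, adjusted p = 0.0423). The lipopolysaccharide co-receptor Cd14 measured 7.84, 9.14 and 10.59 in CA10 leukemic spleen, against 7.09 and 7.07 in wild-type spleen, and was not called (adjusted p = 0.0805). Tlr1 measured 6.73, 8.10 and 9.13 in CA10 leukemic spleen, against 9.41 and 9.94 in wild-type spleen, so this member of the list stood below wild type without being called (adjusted p = 0.173). Without array 3, 2 sensing genes were called, and without arrays 2 and 3, 0. Fc gamma receptors Fcgr1 and Fcgr3, which bind antibody, were the 2 called of 14 genes of Fc receptors and ITAM signalling, whose median difference was 1.61. Fcgr3 measured 9.51, 10.06 and 10.42 in CA10 leukemic spleen, against 8.03 and 8.07 in wild-type spleen, and rose by 1.99 (SE 0.52, adjusted p = 0.0278). Among 22 cytokine receptor genes 3 rose and 0 fell. Csf2ra, the alpha chain of the GM-CSF receptor, measured 9.01, 10.59 and 11.05 in CA10 leukemic spleen, against 8.15 and 8.38 in wild-type spleen, and rose by 2.12 (SE 0.61, adjusted p = 0.0407). The interferon receptor chains Ifngr1 and Ifnar2 rose by 1.27 (SE 0.28, adjusted p = 0.0139) and 0.95 (SE 0.24, adjusted p = 0.0244). None of the 21 JAK, STAT and SOCS genes downstream of such receptors was called, and 0 had an unadjusted p under 0.05.

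Klrk1, or NKG2D, an activating receptor of natural killer and T cells, was looked at after its values were seen. It measured 8.15, 9.11 and 9.97 in CA10 leukemic spleen, against 7.40 and 6.97 in wild-type spleen, and rose by 1.94 (SE 0.51, adjusted p = 0.0299). Of 8 natural killer cell markers 0 were called, and 0 had an unadjusted p under 0.05. Their list mean was 6.08 to 7.56 on the CA10 leukemic arrays, and 6.68 and 6.73 on the wild-type arrays. Like Klrk1, it was highest on CA10 leukemic array 4 and lowest on array 3. The part of these markers in the rise of Klrk1 was not tested. Nkg7, a granule protein of cytotoxic cells, measured 7.55, 9.86 and 10.27 in CA10 leukemic spleen, against 7.95 and 8.36 in wild-type spleen (adjusted p = 0.521).

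Part of central carbon metabolism rose. Of 18 glycolytic genes 4 rose and 0 fell, with a median difference of 0.86 over the list. Pgam1, which turns over phosphoglycerate, measured 9.97, 10.20 and 11.19 in CA10 leukemic spleen, against 8.09 and 8.74 in wild-type spleen, and rose by 1.94 (SE 0.41, adjusted p = 0.0117). Tpi1 measured 10.87, 11.37 and 12.10 in CA10 leukemic spleen, against 10.07 and 9.73 in wild-type spleen, and rose by 1.48 (SE 0.38, adjusted p = 0.0245). Every CA10 leukemic array exceeded both wild-type arrays for these enzymes, array 2 being the highest. Pgk1 rose by 1.07 (SE 0.24, adjusted p = 0.0174), and Ldha, which makes lactate, by 0.74 (SE 0.21, adjusted p = 0.0367). Hexokinases Hk2 and Hk3 measured 8.34, 8.50 and 9.71 in CA10 leukemic spleen, against 6.40 and 6.95 in wild-type spleen, and 9.62, 10.16 and 11.04 in CA10 leukemic spleen, against 8.06 and 7.65 in wild-type spleen, but were not called (adjusted p = 0.0763 and 0.115). Of 6 genes of the pentose phosphate pathway, Taldo1 rose by 0.65 (SE 0.16, adjusted p = 0.022) and Rpe by 1.15 (SE 0.30, adjusted p = 0.028). After quantile normalization 3 glycolytic genes and 0 pentose phosphate genes were called, and without arrays 2 and 3, 1 and 0. Of 15 genes of fatty acid synthesis 0 were called, 6 having an unadjusted p under 0.05. Scd1, the stearoyl desaturase, measured 7.22, 8.44 and 10.36 in CA10 leukemic spleen, against 10.24 and 11.25 in wild-type spleen, and Elovl6, an elongase, 7.46, 7.62 and 8.89 in CA10 leukemic spleen, against 6.22 and 6.15 in wild-type spleen (adjusted p = 0.0998 and 0.0628).

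Part of the citric acid cycle rose. Of 16 genes 5 rose and 0 fell, with a median difference of 0.66, and 3 of the 5 encode subunits of succinate dehydrogenase, the enzyme shared with the respiratory chain. Sdhb measured 10.90, 11.24 and 11.55 in CA10 leukemic spleen, against 10.29 and 10.11 in wild-type spleen, and rose by 1.03 (SE 0.17, adjusted p = 0.0062). Sdhd measured 10.42, 10.75 and 10.98 in CA10 leukemic spleen, against 9.99 and 9.33 in wild-type spleen, and rose by 1.07 (SE 0.25, adjusted p = 0.0182). Sdhc measured 9.36, 9.63 and 10.07 in CA10 leukemic spleen, against 8.72 and 9.13 in wild-type spleen, and rose by 0.75 (SE 0.20, adjusted p = 0.0299). No value of a CA10 leukemic array fell within the wild-type pair for any of them. Suclg1, a subunit of succinyl-CoA ligase, rose by 0.79 (SE 0.19, adjusted p = 0.0215), and Fh1, or fumarase, was the remaining one. Idh2 and Idh3a, isocitrate dehydrogenases, measured 8.55, 9.59 and 10.16 in CA10 leukemic spleen, against 8.17 and 8.51 in wild-type spleen, and 9.70, 10.36 and 10.61 in CA10 leukemic spleen, against 9.66 and 9.33 in wild-type spleen, and were not called (adjusted p = 0.0781 and 0.145). After quantile normalization 2 members were called, without CA10 leukemic array 3, 3, and without arrays 2 and 3, 1.

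Part of sterol synthesis rose, with 5 of 19 genes called higher, 0 lower, and all 19 differences above 0. Fdps, the farnesyl diphosphate synthase that feeds both sterols and protein prenylation, measured 8.88, 9.30 and 10.08 in CA10 leukemic spleen, against 7.28 and 7.48 in wild-type spleen, and rose by 1.99 (SE 0.34, adjusted p = 0.00637). Tm7sf2, a sterol reductase, measured 7.08, 7.64 and 8.46 in CA10 leukemic spleen, against 6.72 and 6.30 in wild-type spleen, and rose by 1.24 (SE 0.30, adjusted p = 0.0225). Msmo1, a sterol oxidase, measured 7.99, 8.25 and 9.17 in CA10 leukemic spleen, against 7.07 and 7.33 in wild-type spleen, and rose by 1.16 (SE 0.34, adjusted p = 0.0428). The groups were apart in all of these, and for Msmo1 array 2 stood above the other leukemic arrays. Ebp, a sterol isomerase, rose by 0.81 (SE 0.16, adjusted p = 0.00954), and Idi1 was also called. Cyp51 and the feedback protein Insig1 measured 7.01, 7.38 and 8.44 in CA10 leukemic spleen, against 6.31 and 6.45 in wild-type spleen, and 7.05, 7.93 and 9.23 in CA10 leukemic spleen, against 7.14 and 6.94 in wild-type spleen, and were not called (adjusted p = 0.173 and 0.163). The list mean was highest on CA10 leukemic array 2, at 8.53, against 7.74 to 8.04 on the other 5 and 7.19 and 7.31 in wild-type spleen. After quantile normalization 3 members were called, as without array 2, and 2 were called without arrays 2 and 3.

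Biosynthesis of serine and nucleotides moved in a few steps. Psat1, the aminotransferase of serine synthesis, measured 8.53, 9.25 and 9.73 in CA10 leukemic spleen, against 6.49 and 6.93 in wild-type spleen, and rose by 2.43 (SE 0.45, adjusted p = 0.00832). Shmt2, which passes serine's carbon to folate in mitochondria, rose by 1.06 (SE 0.31, adjusted p = 0.0461), and these were the 2 called of 8 genes, 1 of which was called without array 2, without array 3 or with sex as a term. Phgdh, which opens the pathway, measured 8.73, 9.71 and 10.28 in CA10 leukemic spleen, against 9.04 and 9.17 in wild-type spleen, and was not called (adjusted p = 0.425). Of 20 genes of nucleotide synthesis 3 rose: Umps by 0.82 (SE 0.15, adjusted p = 0.00801), Gmps by 0.79 (SE 0.18, adjusted p = 0.0152) and Adss by 0.92 (SE 0.25, adjusted p = 0.0363). Gmps is measured by 3 probe sets that disagree, and the one with the largest spread gave -0.64 (adjusted p = 0.323). Of 16 genes of the ATF4 amino acid response 0 were called and 2 had an unadjusted p under 0.05, with a median difference of -0.11.

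Families of protein subunits showed many calls. The families were chosen after their values were seen, and 5.63% of all genes tested rose. Of 76 mitochondrial ribosomal proteins tested, which translate the respiratory subunits encoded in mitochondria, 37 rose and 0 fell, with a median of 0.69. Of 39 proteasome subunits and assembly factors 17 rose and 0 fell, with a median of 0.59. Of 30 subunits of respiratory complex I, 8 rose and 0 fell, with a median of 0.49, and of 14 subunits of the protein translocon and signal peptidase 6 rose, with a median of 0.61. The 44 cytosolic ribosomal proteins had a median of 0.01, and 2 of them rose. Quantile normalization left 19 mitochondrial ribosomal, 8 proteasome, 4 complex I and 2 translocon genes called. Without CA10 leukemic array 3, 24 mitochondrial ribosomal and 11 proteasome genes were called. Without arrays 2 and 3, the counts in the order above were 15, 7, 3 and 2. Over all 15310 genes, 516 were called higher after quantile normalization, 516 without array 3 and 216 without arrays 2 and 3. None of the 44 cytosolic ribosomal genes was called by limma without array 2, while 5 had an unadjusted p under 0.05 with all arrays.

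Mrpl40 measured 9.35, 9.80 and 10.11 in CA10 leukemic spleen, against 8.67 and 8.62 in wild-type spleen, and rose by 1.11 (SE 0.18, adjusted p = 0.0062). Mrpl42 rose by 1.16 (SE 0.19, adjusted p = 0.00634), and Mrps15 by 0.93 (SE 0.16, adjusted p = 0.00634). Psma7, a core subunit of the proteasome, measured 11.07, 11.35 and 11.67 in CA10 leukemic spleen, against 10.19 and 10.08 in wild-type spleen, and rose by 1.20 (SE 0.19, adjusted p = 0.00434). The lid subunits Psmd7 and Psmd8 rose by 1.38 (SE 0.27, adjusted p = 0.00954) and 0.97 (SE 0.18, adjusted p = 0.00801). Ssr4, of the translocon-associated complex through which secreted proteins enter the endoplasmic reticulum, measured 11.44, 11.55 and 11.65 in CA10 leukemic spleen, against 10.24 and 9.93 in wild-type spleen, and rose by 1.46 (SE 0.20, adjusted p = 0.00329). Its 6 leukemic values lay close together, and far above both wild-type values. Ndufb2, of complex I, measured 10.08, 10.30 and 10.72 in CA10 leukemic spleen, against 8.69 and 8.97 in wild-type spleen, and rose by 1.49 (SE 0.27, adjusted p = 0.00711).

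**Figure D4:**
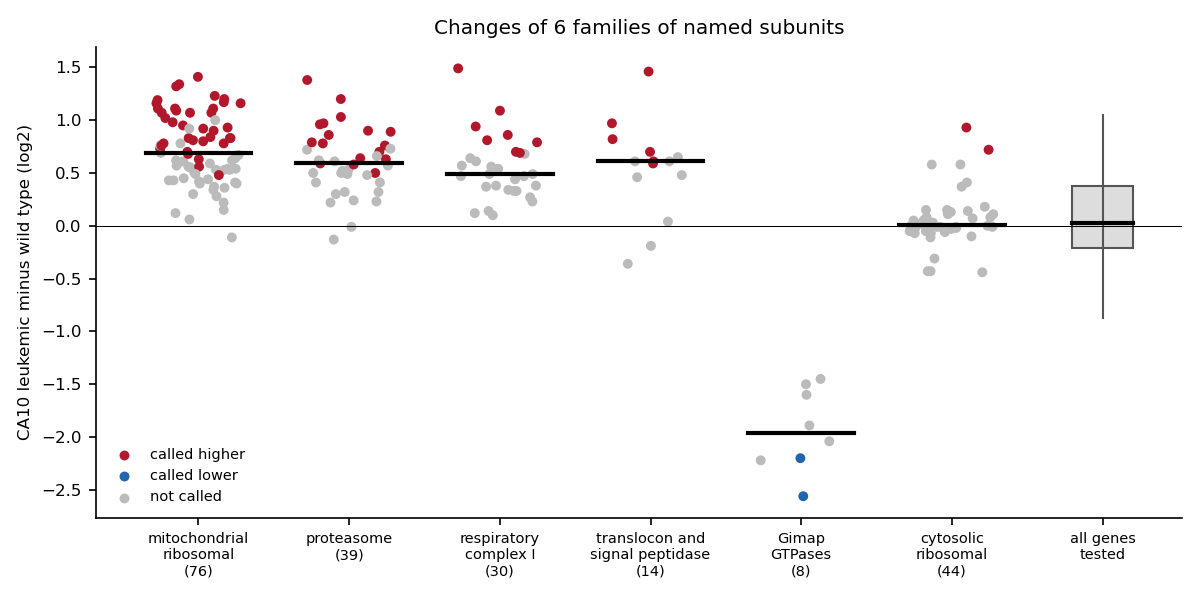
Difference between CA10 leukemic and wild-type spleen (log2) for each tested member of 6 families; red points were called higher, blue points lower and grey points not called, and black lines are medians. The box for all genes tested spans the interquartile range with its median of 0.03, and its whiskers end at -0.87 and 1.05, with 5% of genes beyond each; mitochondrial ribosomal genes have a median of 0.69 and cytosolic ones of 0.01.

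Because many mitochondrial ribosomal genes rose together, the RefSeq promoters of the GRCm38.p6 build were searched, over the 250 bases before each start, for 15 short motifs picked after these results were known. A match is a description of letters on either strand and not a binding site. The ETS-type motif CCGGAAGT was present in 9.6% of 722 genes called higher and 3.4% of 295 called lower that have a promoter, against 5.6% of all 12236. In the 99 mitochondrial ribosomal and proteasome genes tested with a promoter it was present in 14. The PU.1-type motif AGGAAGT, which shares letters with the first, stood in 10% and 7.1%, against 9% of all. The EBF1 motif stood in 0.7% of genes called higher and 3.1% of those called lower, against 1.1% of all. Of the other motifs, the E-box CACGTG stood in 11.1% and 8.1%, against 9.2% of all. The motifs described were picked after all 15 shares were seen. These windows are shown as examples, 3 from mitochondrial ribosomal genes and 1 from a B cell gene, with the motif in capitals. They lie at chr11:94653700-94653779 on the plus strand, and at chr7:100583131-100583201, chr9:98601680-98601726 and chr7:30879032-30879113 on the minus strand, each written 5′ to 3′ on the strand of its gene. In Mrpl48 the motif is the reverse complement.
Mrpl27: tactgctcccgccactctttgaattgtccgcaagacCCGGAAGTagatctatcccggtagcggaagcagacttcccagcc
Mrpl48: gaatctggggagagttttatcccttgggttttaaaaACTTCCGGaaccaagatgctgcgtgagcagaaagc
Mrps22: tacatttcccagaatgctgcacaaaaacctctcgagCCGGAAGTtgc
Cd22: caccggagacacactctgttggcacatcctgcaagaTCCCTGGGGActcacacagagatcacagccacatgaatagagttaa
Mrpl27 rose by 1.41 (SE 0.25, adjusted p = 0.0078), Mrpl48 by 0.95 (SE 0.18, adjusted p = 0.00832) and Mrps22 by 1.11 (SE 0.21, adjusted p = 0.00832), while Cd22, an inhibitory B cell co-receptor, fell by 3.11 (SE 0.81, adjusted p = 0.027).

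In the secretory pathway, 4 of 22 genes of chaperones and the unfolded protein response rose and 1 fell. Sdf2l1 measured 8.96, 9.26 and 9.71 in CA10 leukemic spleen, against 7.87 and 7.28 in wild-type spleen, and rose by 1.70 (SE 0.39, adjusted p = 0.0173). P4hb, a disulfide isomerase, rose by 1.07 (SE 0.27, adjusted p = 0.0242), Dnajb11 by 0.80 (SE 0.19, adjusted p = 0.0205) and Manf by 0.85 (SE 0.25, adjusted p = 0.0464). Syvn1, the ligase that marks misfolded proteins for removal, went the other way. It measured 7.91, 8.27 and 8.72 in CA10 leukemic spleen, against 9.54 and 10.03 in wild-type spleen, and fell by 1.50 (SE 0.35, adjusted p = 0.0179). Without arrays 2 and 3, 0 of the rises and 1 fall were called. Of 23 lysosomal genes, Gusb rose by 1.51 (SE 0.32, adjusted p = 0.0117) and Atp6v1h by 1.02 (SE 0.21, adjusted p = 0.0115), and the mean of Atp6v1h's 3 probe sets gave -0.02 (adjusted p = 0.948). Of 24 genes of ribosome biogenesis Nhp2 and Wdr12 rose, by 1.04 (SE 0.26, adjusted p = 0.0243) and 1.19 (SE 0.33, adjusted p = 0.034), with all 24 differences above 0. After quantile normalization neither was called. Of 21 translation factors and tRNA synthetases, Eif4a1 rose by 0.68 (SE 0.18, adjusted p = 0.0296) and Gars by 0.77 (SE 0.21, adjusted p = 0.0348).

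In the G1 and cell division lists, calls were about as frequent as over all genes tested, of which 5.63% rose. They included an inhibitor and a kinase of the G1 phase. Cdkn1a, the p21 inhibitor of cyclin-dependent kinases, measured 8.26, 9.40 and 9.80 in CA10 leukemic spleen, against 7.00 and 6.48 in wild-type spleen, and rose by 2.49 (SE 0.50, adjusted p = 0.011). Cdk4, a G1 kinase that p21 binds, measured 9.81, 10.13 and 10.21 in CA10 leukemic spleen, against 9.20 and 8.95 in wild-type spleen, and rose by 1.00 (SE 0.19, adjusted p = 0.00954). All 6 CA10 leukemic arrays stood above the wild-type pair for both. These were the 2 called of 28 G1 and MYC network genes, and Myc itself measured 8.53, 8.82 and 9.85 in CA10 leukemic spleen, against 7.68 and 7.73 in wild-type spleen (adjusted p = 0.0761). Among 17 p53 targets 3 rose and 1 fell. Bbc3, or PUMA, which promotes apoptosis, measured 7.69, 8.01 and 8.35 in CA10 leukemic spleen, against 7.02 and 6.85 in wild-type spleen, and rose by 1.07 (SE 0.29, adjusted p = 0.0331). Ccng1 rose by 0.69 (SE 0.18, adjusted p = 0.0255), while Sesn1 fell by 0.92 (SE 0.27, adjusted p = 0.0415). Of 24 cell division genes only the mitotic kinase Aurkb was called, at 8.27, 8.93 and 9.52 in CA10 leukemic spleen, against 7.74 and 6.93 in wild-type spleen, a rise of 1.57 (SE 0.39, adjusted p = 0.0241). Kif11 measured 7.63, 8.84 and 9.37 in CA10 leukemic spleen, against 8.20 and 6.84 in wild-type spleen, where wild-type array 1 lay above the lowest leukemic value (adjusted p = 0.0955). Of the cell division genes 9 had an unadjusted p under 0.05, and the median difference of that list was 0.56. Of 21 DNA repair genes 0 were called, and 6 had an unadjusted p under 0.05.

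Oxygen and redox genes were mixed. Of 15 hypoxia response genes Egln3 rose and the collagen hydroxylase P4ha2 fell by 0.66 (SE 0.18, adjusted p = 0.0294). Bnip3 measured 8.04, 8.44 and 10.91 in CA10 leukemic spleen, against 7.18 and 7.70 in wild-type spleen, with array 2 far above the rest, and was not called (adjusted p = 0.164). Of 17 antioxidant genes, Gsr, the glutathione reductase, measured 9.85, 10.14 and 11.37 in CA10 leukemic spleen, against 8.26 and 8.08 in wild-type spleen, and rose by 2.15 (SE 0.60, adjusted p = 0.0375). Gclc, which starts glutathione synthesis, fell by 1.09 (SE 0.33, adjusted p = 0.0495). None of the antioxidant genes was called without array 2, without array 3 or with sex as a term. Txn1 rose by 0.50 (SE 0.15, adjusted p = 0.0484) on all arrays, but its probe set with the largest spread gave -0.21 (adjusted p = 0.577). Among 12 heat shock genes Hspa4 rose by 0.64 (SE 0.15, adjusted p = 0.0199), whereas the mean of its 4 probe sets gave -0.17 and the probe set with the largest spread -0.54, neither called. Hspa1b measured 6.48, 6.91 and 7.61 in CA10 leukemic spleen, against 7.02 and 11.30 in wild-type spleen, the second wild-type array standing alone.

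Ifi202b, of the HIN-200 family of interferon-inducible DNA-binding proteins, measured 10.42, 11.07 and 12.31 in CA10 leukemic spleen, against 6.79 and 6.99 in wild-type spleen, and rose by 4.23 (SE 0.58, adjusted p = 0.00329), while the other 5 members were not called. Ifi204 measured 5.67, 6.71 and 8.97 in CA10 leukemic spleen, against 4.54 and 4.51 in wild-type spleen (adjusted p = 0.0552). Ifi202b differs between mouse strains, and in the series' wild-type marrows it differed by -4.27 in those labelled C57B6 against the others. The spleens' strain is not given, so strain and genotype cannot be told apart for such genes. Of the 38 genes named for size or smallest p, 11 differed by more than 1 unit between those marrows. The share over all genes tested was not taken, so this count cannot be read as many or few.

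Part of the white pulp programme fell. Of 24 genes that place lymphocytes in follicles, 8 fell and 0 rose, with a median of -1.55. Cxcl13, the stromal chemokine that attracts B cells, measured 5.97, 7.69 and 8.77 in CA10 leukemic spleen, against 11.09 and 11.07 in wild-type spleen, and fell by 3.41 (SE 0.85, adjusted p = 0.0235). Its receptor Cxcr5 measured 4.73, 6.98 and 8.38 in CA10 leukemic spleen, against 9.56 and 10.24 in wild-type spleen, and fell by 3.04 (SE 0.87, adjusted p = 0.0409). The chemokine and the receptor were below both wild-type arrays on all 6 leukemic arrays. Ccr6 measured 7.03, 8.33 and 9.09 in CA10 leukemic spleen, against 10.14 and 10.49 in wild-type spleen, and fell by 2.14 (SE 0.48, adjusted p = 0.0158). S1pr1, which lets lymphocytes leave the organ, measured 5.84, 6.84 and 7.18 in CA10 leukemic spleen, against 9.28 and 10.09 in wild-type spleen, and fell by 2.98 (SE 0.81, adjusted p = 0.0336). Tnfrsf13c, the BAFF receptor for B cell survival, fell by 2.94 (SE 0.81, adjusted p = 0.0344). Among stromal products, Il7 measured 4.63, 4.89 and 5.20 in CA10 leukemic spleen, against 6.27 and 6.93 in wild-type spleen, and fell by 1.68 (SE 0.40, adjusted p = 0.0197). Madcam1, an adhesion molecule of the marginal sinus, measured 5.12, 5.58 and 5.98 in CA10 leukemic spleen, against 6.49 and 7.00 in wild-type spleen, and fell by 1.17 (SE 0.26, adjusted p = 0.0159). The marginal zone macrophage receptor Marco measured 5.08, 8.14 and 9.08 in CA10 leukemic spleen, against 10.77 and 11.00 in wild-type spleen, and was not called (adjusted p = 0.0545). Without array 2, without array 3 or with sex as a term, 5 members were called, and 1 without both arrays.

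The markers of B cells moved with this programme, their 12-gene mean being 6.12 to 9.05 on the CA10 leukemic arrays and 10.70 and 11.05 on the wild-type arrays, with 7 called lower. Those of T cells ran at 6.49 to 7.73, against 8.24 and 8.91, with 2 of 12 called lower. Of 14 endothelial markers 1 was called, Kdr, the VEGF receptor, at 6.24, 6.48 and 6.87 in CA10 leukemic spleen, against 8.22 and 7.68 in wild-type spleen, a fall of 1.41 (SE 0.26, adjusted p = 0.0079). Of 10 fibroblast and smooth muscle markers, Myh11 measured 4.51, 5.04 and 5.77 in CA10 leukemic spleen, against 6.81 and 8.11 in wild-type spleen, and fell by 2.37 (SE 0.56, adjusted p = 0.019). Of 9 markers of spleen stroma and red pulp, Wt1 fell by 1.16 (SE 0.35, adjusted p = 0.0469), a call lost without array 2, without array 3 or with sex as a term, while the spleen-defining factors Tlx1 and Nkx2-3 measured 4.91, 6.79 and 7.08 in CA10 leukemic spleen, against 7.48 and 7.28 in wild-type spleen, and 5.53, 6.31 and 6.67 in CA10 leukemic spleen, against 6.78 and 6.70 in wild-type spleen, and were not called (adjusted p = 0.187 and 0.13). Spic, the factor of red pulp macrophages, measured 6.47, 9.16 and 9.81 in CA10 leukemic spleen, against 9.57 and 8.84 in wild-type spleen. The mean of the spleen markers was lowest on CA10 leukemic array 2.

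Signalling genes of lymphocytes were next. Of 18 genes of B cell receptor signalling 6 fell and 0 rose, with a median of -2.28. After quantile normalization 9 were called, and without arrays 2 and 3, 1. Ralgps2, a guanine nucleotide exchange factor, measured 6.52, 7.10 and 8.82 in CA10 leukemic spleen, against 10.28 and 10.47 in wild-type spleen, and fell by 2.92 (SE 0.79, adjusted p = 0.0329). Blnk, the linker below the receptor, measured 7.07, 8.71 and 10.05 in CA10 leukemic spleen, against 11.23 and 11.75 in wild-type spleen, and was not called (adjusted p = 0.0542). Ablim1, an actin-binding protein among the 15 largest falls, measured 6.87, 7.27 and 8.92 in CA10 leukemic spleen, against 10.25 and 11.04 in wild-type spleen, and fell by 3.08 (SE 0.61, adjusted p = 0.011). Foxo1, a transcription factor of lymphocytes restrained by AKT, measured 7.17, 7.60 and 8.70 in CA10 leukemic spleen, against 9.41 and 10.22 in wild-type spleen, and fell by 2.02 (SE 0.47, adjusted p = 0.0182), while Akt1 rose by 0.80 (SE 0.15, adjusted p = 0.00832). These were the 2 called of 18 genes of PI3K, AKT and mTOR signalling. The pro-apoptotic Bcl2l11, or BIM, measured 8.77, 9.10 and 9.68 in CA10 leukemic spleen, against 10.99 and 10.34 in wild-type spleen, and fell by 1.46 (SE 0.40, adjusted p = 0.0336), the 1 called of 20 BCL2 family and caspase genes. Of 18 NF-kB genes Nfkb2 fell by 0.87 (SE 0.26, adjusted p = 0.0455). Bcl2l11 was not called without array 3, nor Nfkb2 without array 2 or without array 3, and neither was with sex as a term. Among the Gimap GTPases of lymphocytes, a family picked after its values were seen, 2 of 8 fell, against 2.42% of all genes tested. All 8 lay below 0 and the median was -1.96. Gimap8 measured 7.59, 8.31 and 9.98 in CA10 leukemic spleen, against 11.01 and 11.24 in wild-type spleen, and fell by 2.56 (SE 0.60, adjusted p = 0.0186).

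WNT and Notch genes moved in part. Lef1, the WNT-responsive factor of lymphoid progenitors and T cells, measured 5.43, 5.71 and 6.12 in CA10 leukemic spleen, against 7.14 and 7.62 in wild-type spleen, and fell by 1.62 (SE 0.28, adjusted p = 0.00637). Dvl1, which relays WNT signals, fell by 1.22 (SE 0.27, adjusted p = 0.015), so 2 of 18 WNT genes fell and 0 rose. Among 16 Notch genes, Rbpj, the DNA-binding partner of Notch, measured 8.65, 9.71 and 10.03 in CA10 leukemic spleen, against 8.09 and 8.12 in wild-type spleen, and rose by 1.46 (SE 0.35, adjusted p = 0.0209). Dtx1 fell by 3.57 (SE 0.74, adjusted p = 0.0115), and Notch3 by 1.44 (SE 0.40, adjusted p = 0.0376). The direction of Rbpj was thus opposite to that of Dtx1, a Notch target in marginal zone B cells. Of 22 RAS and MAPK genes 2 rose, Rasgrp4, a myeloid exchange factor, by 1.09 (SE 0.32, adjusted p = 0.0453) and Spred2, a feedback inhibitor, by 1.19 (SE 0.35, adjusted p = 0.0464). Neither was called without array 2, without array 3 or with sex as a term.

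A pair of histone methyltransferase genes fell. Of 26 Polycomb, MLL and DNA methylation genes 2 fell and 0 rose. Dot1l, the methyltransferase that AF10 binds, measured 7.38, 7.51 and 7.69 in CA10 leukemic spleen, against 8.24 and 8.24 in wild-type spleen, and fell by 0.72 (SE 0.16, adjusted p = 0.0178). Kmt2a, which encodes MLL, measured 7.28, 7.84 and 8.58 in CA10 leukemic spleen, against 8.98 and 9.53 in wild-type spleen, and fell by 1.40 (SE 0.35, adjusted p = 0.0235). The groups did not overlap for either. Dnmt3a measured 7.75, 8.08 and 8.39 in CA10 leukemic spleen, against 7.21 and 7.43 in wild-type spleen, and Cbx7 5.83, 6.07 and 6.78 in CA10 leukemic spleen, against 7.13 and 7.45 in wild-type spleen, neither called (adjusted p = 0.133 and, just above the threshold before rounding, 0.05). Without CA10 leukemic arrays 2 and 3 neither Dot1l nor Kmt2a was called.

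Of the lists not yet described, 1 of 14 complement genes rose and 1 fell, 1 of 16 genes of coagulation and fibrinolysis rose, and 1 of 11 MS4A genes rose. The rises in complement and MS4A were not called without array 2 or without array 3. In 12 lists no member was called by limma. They held 197 members tested, of which 42 had an unadjusted p under 0.05. Besides the lists named above, these were autophagy, phagocyte oxidase, iron and heme handling, extracellular matrix, matrix proteases, integrins and adhesion, TGF-beta and BMP signalling, and purine receptors. Some of their members had large differences with a wide spread. Mmp8, the neutrophil collagenase, measured 7.52, 9.10 and 9.92 in CA10 leukemic spleen, against 5.89 and 4.73 in wild-type spleen (adjusted p = 0.054), and Mmp9 6.49, 7.66 and 10.42 in CA10 leukemic spleen, against 6.06 and 6.03 in wild-type spleen (adjusted p = 0.336). Cybb, the catalytic subunit of the phagocyte oxidase, measured 10.84, 11.22 and 12.07 in CA10 leukemic spleen, against 10.15 and 10.45 in wild-type spleen (adjusted p = 0.497). Fibronectin, Fn1, measured 9.06, 10.22 and 12.27 in CA10 leukemic spleen, against 8.33 and 8.88 in wild-type spleen (adjusted p = 0.169). All of these lay above both wild-type arrays on every leukemic array, as 31.8% of genes did not overlap in either direction.

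The comparison of CA10 leukemic with CA10 healthy spleen called 920 of 15310 genes (6.01%), 640 higher (4.18%) and 280 lower (1.83%). Of the 15 largest rises 4 were called there, and of the 15 largest falls 10, in the same fit that shares the leukemic arrays with the main comparison. Fdps was 1.79 (adjusted p = 0.00194) higher, Sdhb 0.77 (adjusted p = 0.00456), Psmd8 0.95 (adjusted p = 0.00193) and Klrk1 2.17 (adjusted p = 0.00669). The CA10 healthy arrays were spread widely in myeloid genes, Ccl9 spanning 7.40 to 11.80 and Alox5ap 9.29 to 11.81. The Gapdh 3' minus 5' difference was 2.09 on CA10 healthy array 1, which holds the Alox5ap value of 11.81. On the rest of that group it was 0.14 to 0.58. The part of RNA quality in this spread was not tested. Fdps spanned 7.22 to 8.04, below every leukemic array. On 1 CA10 healthy array the pancreas markers averaged 12.49. Between CA10 healthy and wild-type spleen limma called 0 genes, with 387 at an unadjusted p under 0.05. Of the mitochondrial ribosomal genes 23 of 76, and of the proteasome genes 15 of 39, were called higher in CA10 leukemic than in CA10 healthy spleen.

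**Figure D5:**
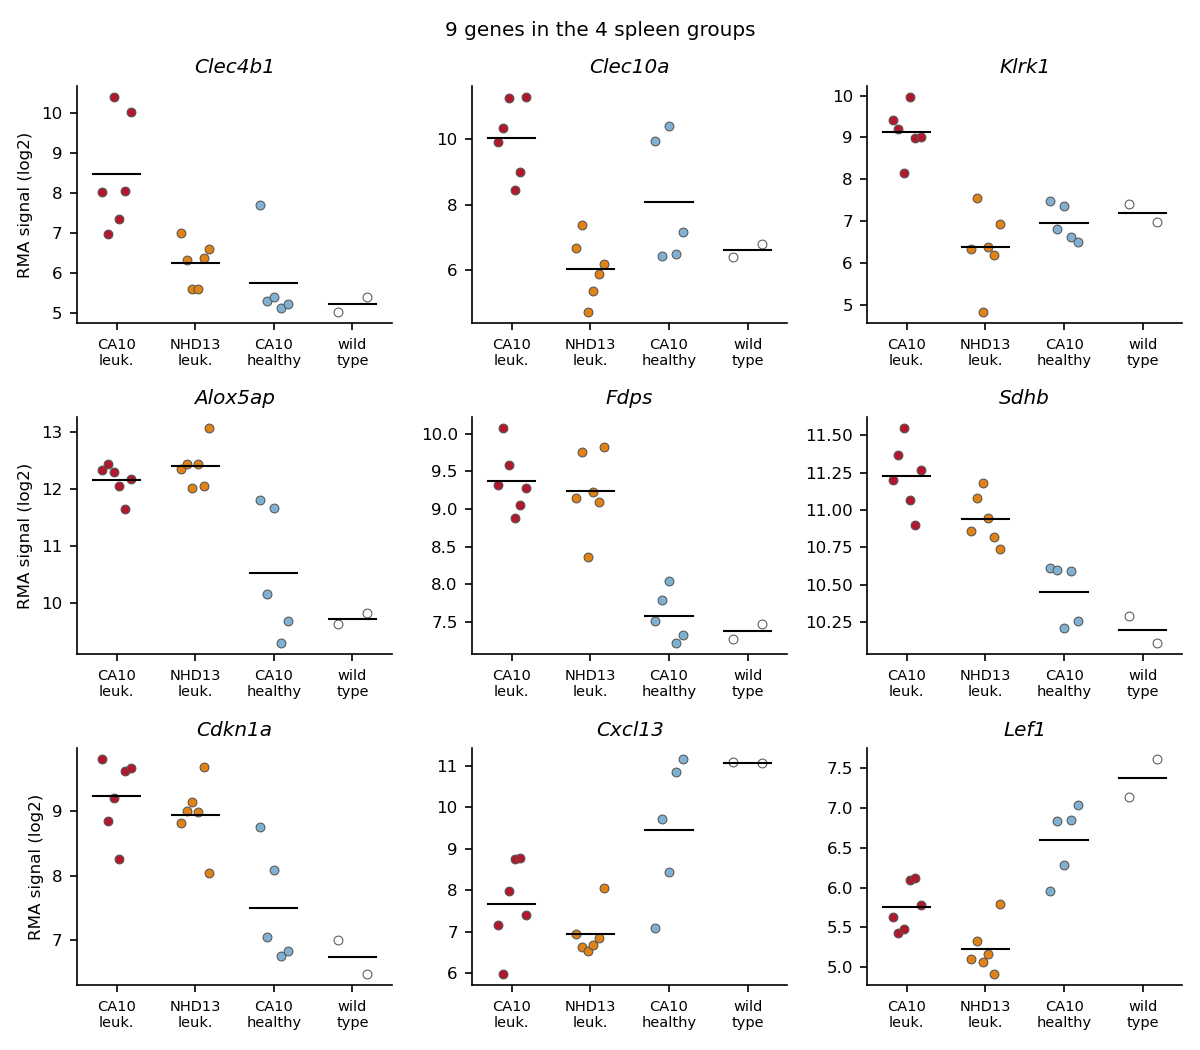
RMA signals (log2) of 9 genes on each array of 4 spleen groups (6 CA10 leukemic, 6 NHD13 leukemic, 5 CA10 healthy and 2 wild-type arrays); black lines are group means and each panel has its own axis. Klrk1 and Clec10a are highest in CA10 leukemic spleen, Alox5ap and Fdps are high in both leukemias, and Cxcl13 and Lef1 are highest in wild-type spleen.

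CA10 leukemic spleen was also tested directly against NHD13 leukemic spleen. The test called 3782 of 15310 genes (24.7%), with 1791 (11.7%) higher and 1991 (13%) lower relative to NHD13 leukemia. Array processing also differed between these groups. The spiked-in labelling control phe measured 6.08 to 7.80 on the CA10 leukemic arrays and 8.81 to 10.17 on the NHD13 leukemic arrays. Its part in this comparison was not tested. Ifi202b, the gene linked to strain above, was 6.80 (adjusted p = 7.51e-09) higher, with NHD13 leukemic arrays at 3.68 to 4.91, beside 4.15 to 4.53 in the wild-type marrows labelled C57B6. The part of strain in this comparison was not tested. Of 13 C-type lectins 4 were higher and 0 lower. Clec10a was 4.00 (adjusted p = 0.000716) higher and Clec4b1 2.21 (adjusted p = 0.00874), with NHD13 leukemic arrays at 4.72 to 7.37 for Clec10a and 5.62 to 7.00 for Clec4b1. Klrk1 was 2.75 (adjusted p = 5.02e-05) higher, with NHD13 leukemic arrays at 4.82 to 7.56. Of 8 natural killer cell markers 3 were higher and 1 lower. Their list mean was 6.08 to 7.56 in CA10 leukemic and 4.61 to 6.54 in NHD13 leukemic spleen, and their part was not tested. Of 23 innate sensing genes 7 were higher, Tlr8 by 1.32 (adjusted p = 9.47e-05). Csf2ra was 1.86 (adjusted p = 0.00496) higher. Of 9 dendritic cell markers 7 were higher, their list mean being 8.25 to 9.04 in CA10 leukemic spleen and 6.07 to 7.46 in NHD13 leukemic spleen. Of 18 NF-kB genes 10 were higher and of 24 white pulp genes 10, Ccr6 by 2.66 (adjusted p = 3.49e-05). The B cell marker mean also differed, at 6.12 to 9.05 in CA10 leukemic and 5.23 to 6.30 in NHD13 leukemic spleen, and its part was not tested. Of 76 mitochondrial ribosomal genes 0 were higher in CA10 leukemic spleen and 23 lower, and of 20 nucleotide synthesis genes 1 was higher and 8 lower. Of 21 DNA repair genes 9 were lower and of 24 cell division genes 6, with 0 higher in both. Proteasome genes were split, with 4 higher and 7 lower, as were glycolysis, with 3 and 2, and sterol synthesis, with 1 and 1. Psat1 differed by -1.02 (adjusted p = 0.0276) and Sdf2l1 by -1.16 (adjusted p = 0.00579). Alox5ap, Fdps, Cdkn1a and Ccl9 were not called between the leukemias, at -0.24 (adjusted p = 0.657), 0.14 (adjusted p = 0.707), 0.29 (adjusted p = 0.57) and 0.63 (adjusted p = 0.534).

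Over the 6 CA10 leukemic arrays, the genes with the largest SD were set by a few arrays. Stfa3 and Stfa2l1, cysteine protease inhibitors of the stefin family made by neutrophil precursors, ran at 4.14, 5.76 and 12.19 and 4.91, 7.56 and 12.08 over the 6 arrays, against 4.54 and 5.08 and 4.89 and 4.62 in wild-type spleen. Arrays 5 and 6 held the high values of both. The erythroid genes Rhag, Car1, Cldn13 and Trim10 were lowest on array 2 and next lowest on array 4, with Car1 at 5.23 and 7.57 there, against at least 10.42 on the other 4. The platelet genes Ppbp and Gp1bb were low on array 2, at 4.89 and 3.67. Hpgd, which breaks down prostaglandins, ran at 4.78, 8.64 and 12.22, the highest value on array 3. Cpa1 and Cpb1, pancreatic carboxypeptidases, stood at 10.72 and 10.92 on array 3 and at most 5.04 and 4.73 on the other 5. Eosinophil and basophil granule genes also varied, Prg2 running at 3.68, 5.60 and 8.97 and Mcpt8 at 6.14, 7.57 and 10.41, with arrays 1 and 2 highest for both. None of these genes was called against wild-type spleen.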

How the data were processed

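RNA from mouse tissue was extracted with Trizol, labelled with biotin and hybridised to Affymetrix arrays, per the labels' protocols. The deposited table holds log2 signals that the authors made with RMA, per the submitters' processing notes, for 44943 probe sets on 57 arrays; the scanner files were not used here. RMA sets the arrays to like distributions, so a shift shared by most genes is not measured. The medians of the 8 arrays compared were 5.5 to 5.64, and the number of arrays limits the precision.

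GEO's platform annotation gave 1 gene for 34842 probe sets, several for 931 and none for 9106, with 64 controls. Each of 18165 genes was read from 1 probe set, that of highest mean signal (8980 genes have more than 1). Genes above the 40th percentile of an array on at least 3 of the 57 arrays were tested, 15310 in all. limma 3.58.1 in R 4.3.3 (lmFit, eBayes) fitted 4 group means to the 19 spleen arrays, with Benjamini-Hochberg adjustment and a threshold of 0.05. Tested on simulated data of 15310 genes, this comparison recovered 64% of genes raised by 1, 86% by 2, 90% by 3 and 90% of those changed by -2, with 8 unchanged genes called.

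The members and the lists were chosen with earlier results of these data known. Of 1076 list members 978 were matched to a gene. Named were the 15 largest rises and falls with groups that do not overlap (predicted genes left out), up to 4 called members of a list per direction, 2 uncalled members with the largest change per list, the 12 genes with the largest SD over the CA10 leukemic arrays and the 10 smallest adjusted p-values. Clec7a, Klrk1, the subunit families and the genes whose promoters are shown were added after their values were seen, and Idi1 and Fh1 complete counts. Alternatives were other filters, probe set choices, scaling, sample sets, covariates, a replicate block and leaving out arrays. Those for a labelling control, for whole groups and for CA10 leukemic arrays 2 and 3 together were chosen after seeing the data.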

Additional observations from a re-analysis of the deposited data

Results flagged for a closer look

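Of 113 values tested over the 6 CA10 leukemic arrays, 18 had 1 array far from the others, its gap to the nearest, as a share of the whole range, being above Dixon's 95% critical value. Chance alone gives this in about 1 in 20 groups, but 12 of the genes tested were picked for their large SD on these same arrays and lists share genes, so the 18 cannot be read against that share.

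CA10 leukemic array 2 stood alone most often. Its platelet genes were low, with Ppbp at 4.89 (nearest other array 12.24) and Gp1bb at 3.67 (9.27), and the mean of the megakaryocyte and platelet markers was 5.91 (9.88). The markers of spleen stroma and red pulp averaged 6.37 (7.92) and the eicosanoid genes 6.91 (7.36). It was the highest array for the list means of glycolysis, at 9.9 (9.28), fatty acid synthesis, at 9.3 (8.75), sterol synthesis, at 8.53 (8.04), hypoxia response, at 8.33 (7.58), and adipocyte markers, at 8.09 (5.84). Ifi202b was highest there too, at 12.31 (11.13).

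CA10 leukemic array 3 was alone in exocrine pancreas genes, with a marker mean of 10.61 (6.15), Cpa1 at 10.72 (5.04) and Cpb1 at 10.92 (4.73). Lztfl1, which encodes a protein of ciliary trafficking, was highest there, at 9.25 (8.74). CA10 leukemic array 4 had the lowest mean of cell division genes, 9.07 (9.93), and the highest of JAK, STAT and SOCS genes, 8.95 (8.67). Bex6 was lowest on CA10 leukemic array 5, at 8.47 (9.69).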

How the results depend on the processing

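The number of called genes, 1232, was 2195 with only the 2 groups fitted, 691 with all 57 arrays, 1961 with the Gapdh 3' minus 5' difference as a covariate and 281 without CA10 leukemic arrays 2 and 3. Genes called higher, 862 at first, numbered 1550, 434, 1346 and 216 in these settings and 516 after quantile normalization. Genes called lower, 370 at first, numbered 645 with only the 2 groups, 615 with the covariate, 65 without arrays 2 and 3 and 597 after quantile normalization. With one array left out at a time, called genes ran from 0 to 1350, those higher from 0 to 916 and those lower from 0 to 434. The lowest values came without a wild-type array, where 1 and 0 genes were called and 2517 and 2297 had an unadjusted p under 0.05. The members called over all pathway lists, 97, numbered 183 with only the 2 groups, 179 with the covariate, 22 without arrays 2 and 3, and 0 to 116 with one array left out. A lone wild-type array is assumed to vary like the other groups. Other filters, probe set choices, the trend and robust setting, sex as a term and the labelling control kept the total of called genes between 900 and 1336. A replicate block gave 1496 calls, 1057 of them shared with the 1232. The wild-type arrays share only numbers 1 and 2 with the leukemic arrays, with correlations of deviations of 0.21 and 0.12. The deviations of 2 arrays from their own mean mirror each other, so these correlations cannot decide on pairing. The numbers were not taken to pair the samples.

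Direction reversed for 4 named genes, each measured by several probe sets. Atp6v1h gave -0.02 and Hspa4 -0.17 with the mean of all probe sets. With the probe set of the largest SD, Hspa4 gave -0.54, Gmps -0.64 and Txn1 -0.21. The cause was not tested.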
